A study of Mus musculus with 2 samples.

Results

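The nuclei described here were selected from single-nucleus RNA sequencing of the mouse paraventricular hypothalamus (PVH) by their counts of Qrfpr, Sim2, Crhr2 and Lgr5. A member held at least 2 UMIs of these 4 genes together, where a UMI (unique molecular identifier) counts 1 captured RNA molecule. It also held at most 1 UMI of the GABAergic genes Gad1, Gad2 and Slc32a1 together, under 4 of Sst, and under 10 each of Oxt and Avp. The rule found 216 members among 4904 nuclei that carried exactly 1 hashtag, a barcode that marks the pool a nucleus came from. The other 4688 nuclei were the comparison.

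Nuclei came from 17 mice aged 4 weeks, all of which carried Sim1-Cre and the nuclear-envelope reporter Sun1-GFP, and GFP-positive nuclei were sorted before sequencing. The Otp gene, which encodes a homeobox factor of neuroendocrine neurons, was floxed on 1 allele (Otpfl/+) in 4 mice, carried the Q153R change on 1 allele (OtpQ153R/+) in 6 mice, and was unaltered in 7 mice. The hashtags are named KD, Q153R and Ctrl in the data. Only elimination matches KD to the floxed mice, and the groups are therefore named by their hashtag labels. Cre acts only in cells that have expressed Sim1, and the selection by GFP is meant to keep those cells. The sorted nuclei also included groups with little Sim1 RNA, led by GABAergic or glial genes. Whether the cells of these groups had ever expressed Sim1 was not tested. Each label is 1 pool of mice with no map from nuclei to mice, so differences have no replicate check and are given without p-values. Intervals are at 95%, cover counting error alone and treat the UMIs of 1 nucleus as independent.

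Qrfpr is the receptor of the RFamide peptide QRFP, which is known for effects on feeding and arousal. Sim2 is a bHLH-PAS transcription factor and the paralog of Sim1, and such factors bind DNA as dimers with an ARNT protein. Crhr2 is the receptor of urocortins, the relatives of corticotropin-releasing hormone, Lgr5 is a receptor of R-spondins that amplifies Wnt signalling, and Bdnf encodes a neurotrophin whose loss in the PVH is known to cause obesity in mice. PVH neurons are mostly glutamatergic, and their development depends on SIM1 with ARNT2 and on OTP and POU3F2.

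Summed over all members, the markers were those of glutamatergic neurons with Sim1, and single members can differ. Neuronal markers, Slc17a6 and Sim1 were at levels near those of the other nuclei, while the PVH factors Arnt2 and Pou3f2 were lower. Levels are summed UMIs over summed library size scaled to CPM, where 1 CPM is 1 count per 1000000. The 4 neuronal markers Rbfox3, Snap25, Syt1 and Meg3 summed to 8055 CPM in members and 7838 CPM in other nuclei. Slc17a6, the vesicular glutamate transporter of the hypothalamus, stood at 141 CPM in members and 130.5 CPM in other nuclei, while Slc17a7 and Slc17a8 had no UMI in members. Sim1 was at 459 CPM in members and 448 CPM in other nuclei, with a UMI in 165 of 216 members. The 4 PVH neuron markers Sim1, Otp, Arnt2 and Pou3f2 summed to 700 CPM in members and 838 CPM in other nuclei (0.84, 0.79–0.89). GABAergic markers summed to 14.0 CPM in members, a level that the rule itself limits, against 113 CPM in other nuclei.

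Markers of astrocytes and oligodendrocytes were lower in members than in all other nuclei, which include glial clusters. The 6 astrocyte markers summed to 68.2 CPM in members and 111 CPM in other nuclei, with Gja1 and Gfap at 0 in members. Against the 2895 other nuclei with a Sim1 UMI and at most 1 GABAergic UMI, at 50.4 CPM, the astrocyte sum was higher in members. For the 5 oligodendrocyte markers the sums were 62.4 CPM in members and 138 CPM in other nuclei, with Mobp and Mag at 0 in members, and 49.1 CPM in the other nuclei with a Sim1 UMI. Microglial markers summed to 82.8 CPM in members and 70.5 CPM in other nuclei, and ependymal markers to 12.1 CPM in members and 3.66 CPM in other nuclei, from 19 UMIs in members. Over the KD, Q153R and Ctrl members, the astrocyte sum was 68.6, 77.6 and 61.5 CPM and the microglial sum 85.3, 87.3 and 77.6 CPM. The part of these RNAs in the results below was not tested.

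The library held 6173 barcodes, of which 6157 had at least 500 genes. A further 129 barcodes carried no tag and 1124 carried more than 1, and all of these were left out. Members had a median of 6941.5 UMIs and other nuclei 5169 UMIs. Among members the median was 7490 UMIs for KD, 6046.5 for Q153R and 7045 for Ctrl. Of members, 21.3% were among the deepest 10% of nuclei, against 9.49% of other nuclei.

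The 4 genes that chose the members are given as a description. Qrfpr supplied the most UMIs, with 305 in 125 members, or 194 CPM in members and 6.41 CPM in other nuclei. Lgr5 followed with 264 UMIs in 103 members, 168 CPM in members and 5.38 CPM in other nuclei. Sim2 had 116 UMIs in 77 members, or 73.9 CPM in members and 2.17 CPM in other nuclei. Crhr2 was the scarcest, with 75 UMIs in 52 members, or 47.8 CPM in members and 2.06 CPM in other nuclei. Members held between 58.1% (Crhr2) and 67.1% (Sim2) of the UMIs that each of these genes had over all one-tag nuclei.

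Most members showed few of the 4 genes at once. A pair of the genes was seen in 83 members, 3 genes in 26 and all 4 in 2, and a single gene in the rest. Qrfpr alone was seen in 42 members, Lgr5 alone in 37, Qrfpr with Lgr5 in 30, Qrfpr with Sim2 in 19, Sim2 alone in 15 and Crhr2 alone in 11. Just inside the threshold, 104 members held exactly 2 UMIs of the 4 genes. Just outside it, 254 nuclei that passed the exclusions held exactly 1. The exclusions removed 33 nuclei that reached 2 UMIs, 26 of them for GABAergic UMIs, 6 for Oxt, 4 for Sst and 0 for Avp, with some failing more than 1 limit.

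Free RNA in droplets puts UMIs into nuclei that do not express a gene, so the share of nuclei reaching 2 UMIs was also taken in nuclei with at least 4 GABAergic UMIs. It was 5.78% (5.05–6.58) of nuclei that passed the exclusions, with a median of 5136.5 UMIs, against 3.77% (1.74–7.03), or 9 of 239, of the GABAergic set, with a median of 6210.0 UMIs. With every nucleus thinned to 2338 UMIs, the shares were 1.96% (1.52–2.5) of nuclei that passed the exclusions and 0.426% (0.0108–2.35), or 1 of 235, of the GABAergic set. At full depth and after thinning the intervals of both shares overlapped, so membership of a single nucleus at the threshold is not read as expression of the 4 genes. The GABAergic set is not known to lack these genes. Of the clusters described below, cluster 15, led by Gad1, held Qrfpr at 14.3 CPM and Lgr5 at 13.7 CPM. Cluster 16, led by Avp, held all 4 genes at 0 CPM. The share in the GABAergic set therefore cannot be read as a measure of free RNA alone.

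Clustering set most members apart as 1 population, but not all of them. All 4904 nuclei were clustered with Qrfpr, Sim2, Crhr2 and Lgr5 left out of the input, which gave 22 clusters. Cluster 2, with 396 nuclei, held 146 members, or 67.6% of them, and members made up 36.9% of it. The other 70 members lay in 15 clusters, with 17 in cluster 9 (led by 9530026P05Rik and Ebf1), 9 in cluster 13 (led by Arhgap28), 7 in cluster 14 (led by Esr2) and 7 in cluster 15 (led by Gad1). The label Qrfpr, Sim2 and Crhr2 neurons thus goes with cluster 2, and the members outside it are called by the rule alone.

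Over all nuclei of cluster 2, Qrfpr stood at 104 CPM, Sim2 at 50.5 CPM, Crhr2 at 39.4 CPM and Lgr5 at 78.5 CPM, although none of them shaped the clusters. Outside cluster 2, Qrfpr was next highest in cluster 13 at 36.7 CPM. Lgr5 was next highest in cluster 19, which was led by the oligodendrocyte-precursor genes Pdgfra and Cspg4, at 70.7 CPM, and then in cluster 14 at 23.1 CPM. Cluster 19 held only 36 nuclei, with a median of 2887.5 UMIs, so its Lgr5 level rests on few UMIs. Sim2 and Crhr2 stayed below 10 CPM in each of the other 21 clusters.

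The gene that made a nucleus a member went with its cluster. Of members with at least 2 of the 4 genes, 98 of 111 lay in cluster 2 (88.3%, 80.8–93.6). Among members with a single gene, 9 of 11 with Crhr2 lay there (81.8%, 48.2–97.7), 10 of 15 with Sim2 (66.7%, 38.4–88.2), 20 of 42 with Qrfpr (47.6%, 32.0–63.6) and 9 of 37 with Lgr5 (24.3%, 11.8–41.2). The intervals of Lgr5 and Crhr2 do not overlap. Of the members labelled KD, 47 of 70 lay in cluster 2, of those labelled Q153R 38 of 62, and of those labelled Ctrl 61 of 84.

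**Figure D1:**
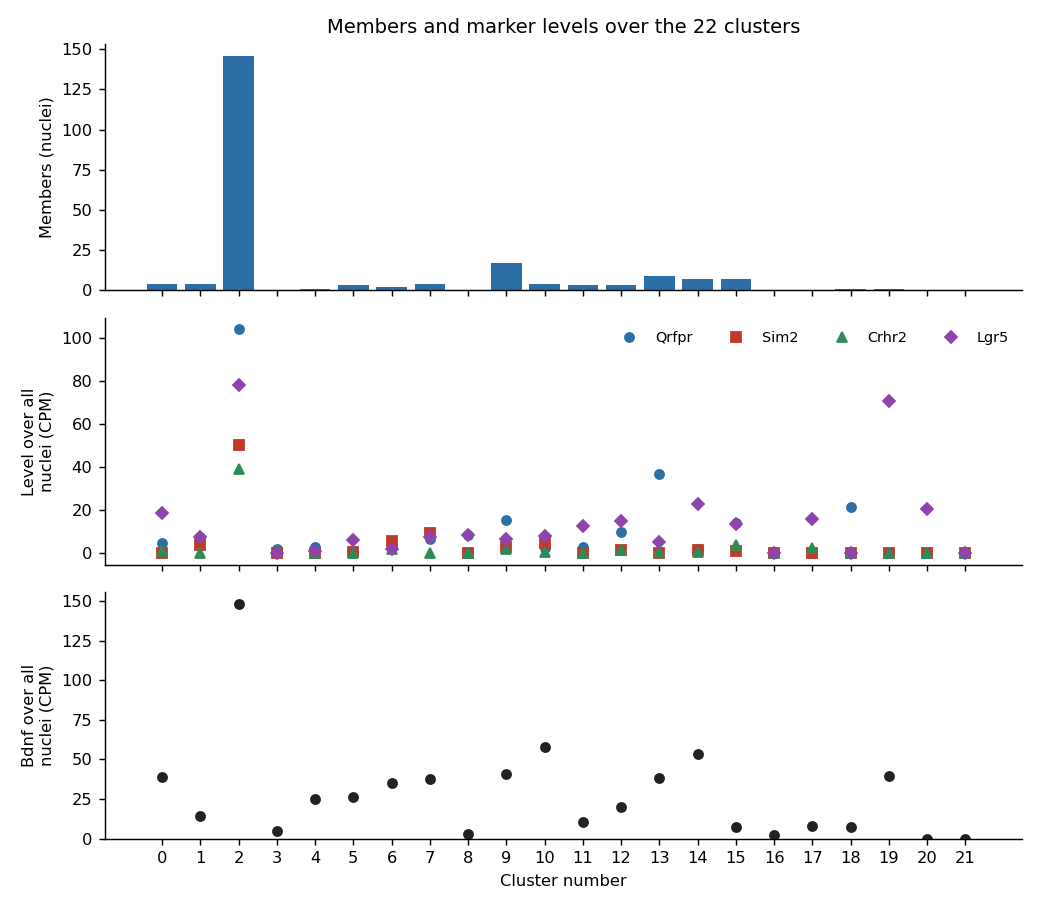
The number of members in each of 22 clusters (top), the level of the 4 selecting genes over all nuclei of each cluster in CPM (middle) and that of Bdnf in CPM (bottom), with clusters by number on the horizontal axis. Cluster 2 holds 146 members and has the highest level of all 5 genes. Lgr5 is also high in cluster 19, at 70.7 CPM from few UMIs in 36 nuclei.

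Bdnf, the marker of these neurons that the rule did not use, was higher in members. It had 173 UMIs in 83 members, which is 110 CPM in members and 32.8 CPM in other nuclei, a ratio of 3.36 (2.84–3.97). Against the other nuclei with a Sim1 UMI, at 38.2 CPM, the ratio was 2.89; that set includes the nuclei of cluster 2 that were not members. Bdnf was seen in 38.4% of members and 11% of other nuclei. It stood at 140 CPM in members inside cluster 2, 55.8 CPM in members outside it and 153.1 CPM in the 250 nuclei of cluster 2 that were not members. Bdnf was among the genes used for clustering.

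Bdnf was higher in nuclei with more UMIs of the selecting genes up to the threshold. Nuclei that passed the exclusions held Bdnf at 38.05 CPM with 0 UMIs of the 4 genes (3268 nuclei), 69.0 CPM with 1 UMI and 117 CPM with 2 UMIs. With 3, 4 and at least 5 UMIs Bdnf stood at 143, 92.0 and 86.1 CPM, and the intervals from 2 UMIs onward overlapped. Fras1, an extracellular matrix protein gene, behaved differently, at 66.3, 192 and 221 CPM with 0, 1 and 2 UMIs and 542, 536 and 686 CPM with 3, 4 and at least 5. The median library size over these classes was 4952.5, 6353.5, 6143.0, 6361.5, 7580.5 and 8601.5 UMIs, and its part in these levels was not tested.

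**Figure D2:**
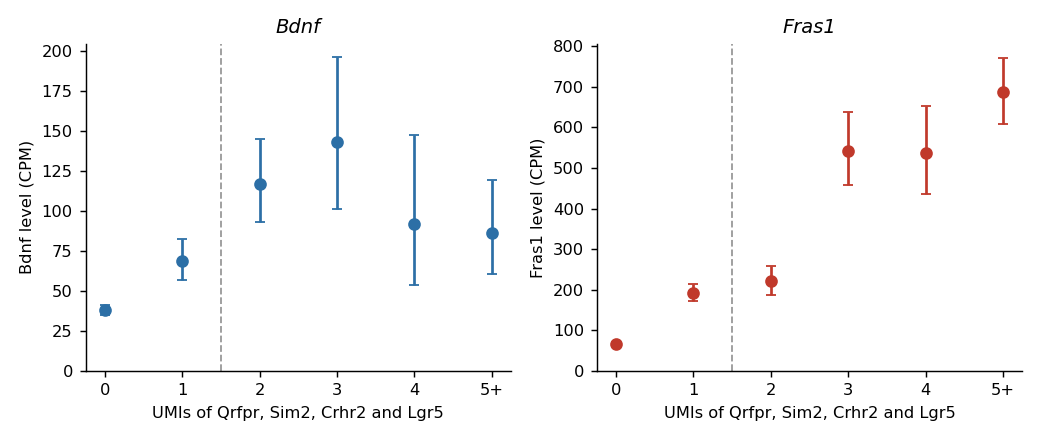
The level of Bdnf (left) and Fras1 (right) in CPM against the number of UMIs of Qrfpr, Sim2, Crhr2 and Lgr5 in a nucleus, with exact Poisson intervals, for nuclei that passed the exclusions; the dashed line marks the threshold of 2 UMIs. Bdnf is at 117 CPM just inside the threshold and 86.1 CPM at 5 or more UMIs, while Fras1 goes on to 686 CPM.

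The windows before the gene starts are shown because Bdnf and Gm2694 were the only genes among those looked up with the letters TACGTG there, known as the site of dimers of a SIM factor and ARNT. The 250 bases before each annotated start were searched on both strands in RefSeq promoter windows (GRCm38.p6). The Bdnf window is chr2:109674450-109674699 on the plus strand, for 1 of the 7 starts of this gene in the table, and the Gm2694 window is chr8:87472866-87473115 on the plus strand. GENCODE vM21 places Gm2694 at chr8:87460469-87525554, so in that annotation the Gm2694 window lies inside the gene and not before its start. Capitals mark the motif, read as CACGTA, its reverse complement, 77 bases before the Bdnf start, and as TACGTG 12 bases before the RefSeq start of Gm2694.
Bdnf: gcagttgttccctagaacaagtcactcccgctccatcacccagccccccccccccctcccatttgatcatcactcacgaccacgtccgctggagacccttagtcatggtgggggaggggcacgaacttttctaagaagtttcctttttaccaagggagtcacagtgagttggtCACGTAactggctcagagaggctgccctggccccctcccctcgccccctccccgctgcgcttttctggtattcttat
Gm2694: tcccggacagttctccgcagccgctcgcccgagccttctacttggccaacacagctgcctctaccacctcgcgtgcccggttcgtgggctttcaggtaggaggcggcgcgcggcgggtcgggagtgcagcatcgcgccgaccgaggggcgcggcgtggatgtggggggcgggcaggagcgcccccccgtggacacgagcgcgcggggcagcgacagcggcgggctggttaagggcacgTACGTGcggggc
Of the 4 selecting genes and the 20 leading genes described below, 14 of 24 matched the table, and 2 of these 14 genes (14.3%) held the motif in at least 1 window. Over the whole table, 842 of 27025 genes (3.12%) did. By single windows the counts were 2 of 24 (8.33%) and 895 of 32851 (2.72%). A match is a description of these letters and not a binding site.

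Members differed from other nuclei in few genes. Of 14262 genes with at least 50 UMIs, 104 were more than 2-fold higher in members (0.729%) and 182 more than 2-fold lower (1.28%), after adding 5 CPM to both levels, which together made 286 genes (2.01%). Against the other nuclei with a Sim1 UMI, 247 of 13239 genes passed 2-fold in either direction (1.87%). The 20 leading genes are those with the highest ratio, the 4 selecting genes aside, among genes with at least 50 UMIs in at least 20 members.

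Matrix, adhesion and secreted proteins were among the leading genes. Fras1 had 685 UMIs in 139 members, at 436 CPM in members and 68.6 CPM in other nuclei, a ratio of 6.36 (5.81–6.95). Angpt1, which encodes the vascular ligand angiopoietin 1, was at 480 CPM in members and 149 CPM in other nuclei (3.22, 2.97–3.48). Cbln2, a synaptic organizer, was at 78.4 CPM in members and 16.1 CPM in other nuclei (4.87, 3.95–5.97). Col19a1, a collagen gene, stood at 3.72 times its level in other nuclei.

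Genes of signalling and excitability formed another group. Calcrl, the calcitonin receptor-like receptor, was at 65.0 CPM in members and 15.7 CPM in other nuclei (4.14, 3.30–5.15). The proton-gated channel subunit gene Asic4 was at 5.63 times its level in other nuclei, and Glra1, a glycine receptor subunit gene, at 3.19 times. Pde1c, a calmodulin-dependent phosphodiesterase gene, was at 327 CPM in members and 87.6 CPM in other nuclei (3.74, 3.39–4.11). Rgs22 stood at 4.90 times its level in other nuclei and Arhgef26, a guanine nucleotide exchange factor gene, at 3.72 times.

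Ddc, the aromatic amino acid decarboxylase of dopamine and serotonin synthesis, was at 47.8 CPM in members and 10.6 CPM in other nuclei (4.52, 3.46–5.86). Cd36, a fatty acid receptor and transporter, was at 36.3 CPM in members and 6.75 CPM in other nuclei (5.38, 3.92–7.29). Of nuclear factors, Rxrg, a retinoid X receptor, was at 4.12 times and Onecut2 at 3.59 times their levels in other nuclei. Hydin, a ciliary gene, was at 4.56 times. The ependymal list also rested on such a gene, with Dnah12 at 8.92 CPM in members and 2.40 CPM in other nuclei, while Ccdc153 was at 0 in members.

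Long noncoding RNAs completed the leading genes. The largest ratio was that of 3110039M20Rik, at 43.3 CPM in members and 5.38 CPM in other nuclei (8.06, 5.94–10.8). Gm28526 was at 6.25 times, Gm13481 at 4.85 times and Gm2694 at 3.52 times their levels in other nuclei, and Gm28526 had its 67 UMIs in 23 members.

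Most leading genes were higher in the members inside cluster 2 than in those outside it. Gm28526 went the other way and was higher in the members outside the cluster, with 14 of its 43 KD UMIs and 6 of its 11 Ctrl UMIs inside. Of its KD UMIs outside the cluster, 16 came from 1 nucleus. Fras1 stood at 628 CPM in members inside it, 86.4 CPM in members outside it and 294 CPM in the 250 other nuclei of cluster 2. Cbln2 was at 116 CPM inside, 9.0 CPM outside and 75.6 CPM in the other nuclei of the cluster, and Pde1c at 469, 70.2 and 370 CPM in the same order. In members outside cluster 2, Gm28526 at 73.8 CPM, Gm2694 at 79.2 CPM, Onecut2 at 64.8 CPM and Cd36 at 14.4 CPM were still over 2 times their levels in nuclei that were not members, which were 6.83, 35.1, 29.6 and 6.75 CPM. These genes took part in the clustering, so their levels inside cluster 2 are a description.

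**Figure D3:**
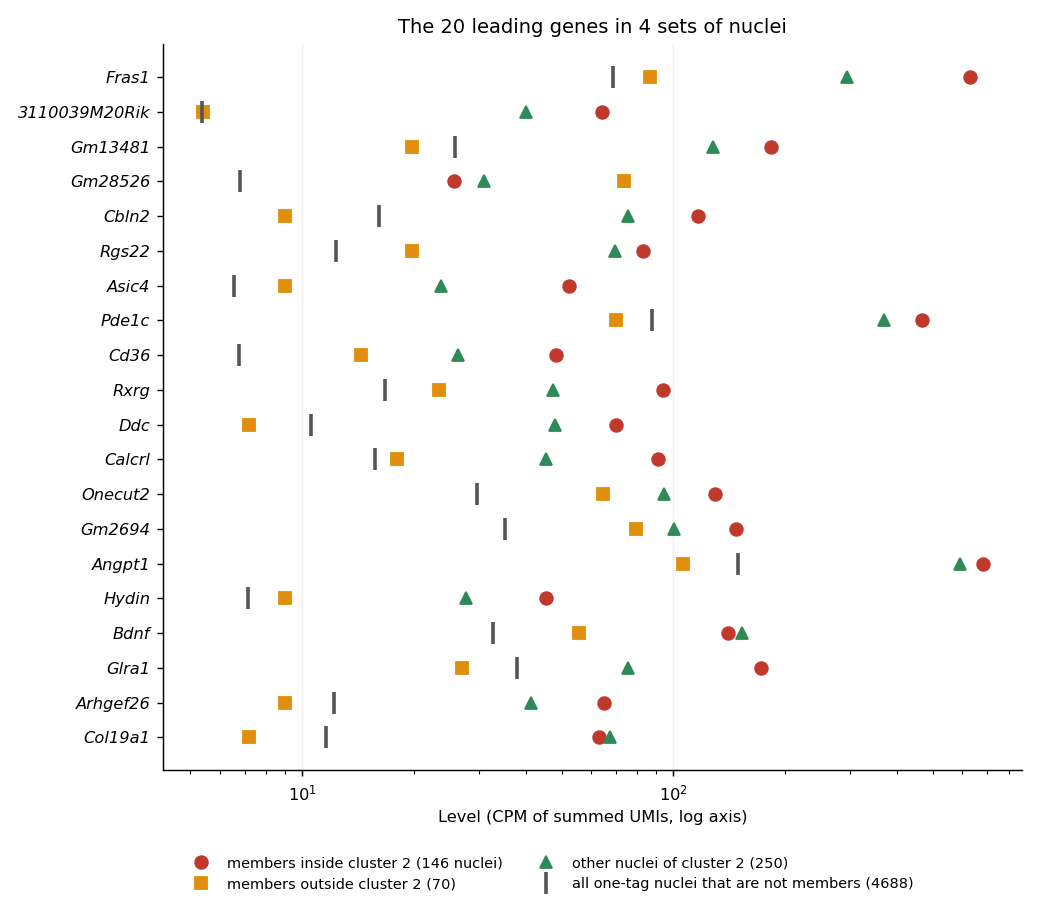
Levels of the 20 leading genes on a log axis of CPM, in 146 members inside cluster 2, 70 members outside it, the 250 other nuclei of cluster 2 and all 4688 nuclei that are not members. For most genes the members outside cluster 2 lie near the nuclei that are not members, as for Fras1 at 86.4 and 68.6 CPM, whereas the other nuclei of cluster 2 lie near the members inside it.

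Among neuropeptide genes, Trh and Tac1 were more than 2-fold higher in members and Oxt, Avp, Sst, Crh and Pmch more than 2-fold lower, out of 26 compared. The selecting genes were left out of every list. The list's median log2 ratio was −0.16, against −0.01 for all genes. Trh, which encodes thyrotropin-releasing hormone, was at 125 CPM in members and 52.2 CPM in other nuclei (2.39, 2.05–2.78), with a UMI in 90 members. Against the other nuclei with a Sim1 UMI the ratio of Trh was 2.07 (1.77–2.41), which after adding 5 CPM did not pass 2-fold. Tac1, the substance P precursor gene, was at 54.8 CPM in members and 20.9 CPM in other nuclei (2.62, 2.06–3.30). The rule limits Oxt, Avp and Sst, so their lower levels are not a finding. Crh was at 14.0 CPM in members and 38.1 CPM in other nuclei (0.37, 0.23–0.56), and against the other nuclei with a Sim1 UMI it did not pass 2-fold (0.45). Pmch rested on 4 UMIs in members. The peptides Qrfp, Ucn and Ucn2, ligands of Qrfpr and Crhr2, had no UMI in members, and Ucn3 was at 10.8 CPM in members and 11.5 CPM in other nuclei.

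Of 51 receptors of energy balance compared, Calcrl, Trhr and Prlr were more than 2-fold higher and Ramp1, Npy1r, Ntsr2 and Adra1b more than 2-fold lower, with a median log2 ratio of 0.09. Trhr, the receptor of thyrotropin-releasing hormone, was at 45.2 CPM in members and 13.8 CPM in other nuclei (3.27, 2.5–4.22). Prlr, the prolactin receptor, was at 222 CPM in members and 104.6 CPM in other nuclei (2.13, 1.90–2.38). Ramp1, which partners Calcrl in the receptor of the calcitonin gene-related peptide, had 1 UMI in members, Ramp2 none and Ramp3 2. Calcr, the calcitonin receptor, was at 168 CPM in members and 100.1 CPM in other nuclei, a ratio of 1.68 (1.48–1.91) that did not pass 2-fold. Ntsr2 led the astrocyte-marker cluster 17, and against the other nuclei with a Sim1 UMI it did not pass 2-fold. Mc4r had 1 UMI in members, Glp1r 1 and Lepr 11.

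Most transcription factors of the list passed 2-fold in neither direction. Of 72 compared, 2 were more than 2-fold higher, Onecut2 among them, and 15 more than 2-fold lower, against 0.729% higher and 1.28% lower over all genes, and the list's median log2 ratio was −0.46, or −0.43 against the other nuclei with a Sim1 UMI, where 3 of 64 were higher and 9 lower. Pou3f2, a POU factor of PVH neurons, was at 12.1 CPM in members and 46.5 CPM in other nuclei (0.26, 0.16–0.41). Ebf3 was at 26.1 CPM in members and 90.5 CPM in other nuclei (0.29, 0.21–0.39), and only 0.986 CPM in members inside cluster 2. Zeb2 was at 12.1 CPM in members and 89.8 CPM in other nuclei (0.14, 0.08–0.21), Bcl11a at 0.26 times and Tcf4 at 0.44 times. Meis2, St18, Sox2, Sox6, Six3, Prox1 and Nfib also passed 2-fold lower, and none of these 7 did so against the other nuclei with a Sim1 UMI. Otp was at 69.4 CPM in members and 74.1 CPM in other nuclei, a ratio of 0.94 (0.77–1.14).

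The bHLH-PAS family, to which Sim2 belongs, showed 1 of 21 compared genes more than 2-fold higher and 2 lower, with a median log2 ratio of −0.15. Arntl2, a clock factor and dimer partner, was at 76.5 CPM in members and 34.9 CPM in other nuclei (2.19, 1.80–2.65). The activity-induced factor Npas4 was at 14.7 CPM in members and 34.4 CPM in other nuclei (0.43, 0.27–0.64), and the clock gene Per1 rested on 10 UMIs in members. Against the other nuclei with a Sim1 UMI neither passed 2-fold, and 0 of 19 genes of the family were lower. Sim1 differed little, at 1.02 times (0.95–1.10) its level in other nuclei. Arnt2, its partner, was at 160 CPM in members and 269 CPM in other nuclei, a ratio of 0.59 (0.52–0.67).

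Of 18 activity-induced genes, 0 were more than 2-fold higher and 5 lower in members, with a median log2 ratio of −0.61, against 1.28% lower and a median of −0.01 over all genes. Against the other nuclei with a Sim1 UMI, 4 of 17 were lower, and Npas4 did not pass. Btg2 was at 11.5 CPM in members and 42.4 CPM in other nuclei (0.27, 0.16–0.43) and Nr4a1 at 17.2 CPM in members and 41.8 CPM in other nuclei (0.41, 0.27–0.60), with Fosl2, Nptx2 and Npas4 the other 3. In the neurotrophin list Bdnf alone passed 2-fold among 7 compared. Its receptor gene Ntrk2 was at 572 CPM in members and 841 CPM in other nuclei (0.68, 0.64–0.73), and Sorcs1, a sorting receptor, at 1024 CPM in members and 595 CPM in other nuclei (1.72, 1.63–1.81).

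Most genes of R-spondin and Wnt signalling differed by less than 2-fold. Of 21 compared genes of R-spondin and Wnt signalling, 0 were more than 2-fold higher and 1, Tcf7l2, was lower. Tcf7l2 had 19 UMIs in 4 members, all outside cluster 2, and its ratio was 0.39 against other nuclei but 4.72 against the other nuclei with a Sim1 UMI. Lgr4, a related receptor, was at 55.4 CPM in members and 60.0 CPM in other nuclei. Znrf3, the ubiquitin ligase that R-spondins inhibit, was at 137 CPM in members and 85.1 CPM in other nuclei (1.61, 1.39–1.85), and Axin2, a Wnt target, at 33.8 CPM in members and 23.9 CPM in other nuclei (1.41, 1.05–1.87). The RFamide and CRH families had 3 and 4 genes compared, of which Crh alone passed 2-fold.

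The lowest ratios among genes at 50 CPM or more in other nuclei belonged to Hs3st2, Avp, Zeb2, Gad2, Oxt, Sv2c, Sema3c, Agtr1a, Sst and Tns1. Hs3st2, a heparan sulfate sulfotransferase, was at 5.73 CPM in members and 61.4 CPM in other nuclei (0.09, 0.04–0.18). Agtr1a, an angiotensin receptor, was at 15.3 CPM in members and 77.6 CPM in other nuclei (0.20, 0.13–0.29). Sv2c, a synaptic vesicle protein gene, was at 41.4 CPM in members and 205 CPM in other nuclei (0.20, 0.16–0.26). Hs3st2, Sv2c and Agtr1a were leading genes of cluster 4, the largest with 756 nuclei, which held 1 member. Gad2, like Oxt, Avp and Sst, is limited by the rule.

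Levels were also compared among members by the gene that selected them. The 107 with a Sim2 or Crhr2 UMI held Gm2694 at 186 CPM, against 65.2 CPM in the 109 with Qrfpr or Lgr5 only. Pde1c was at 441 CPM in the members with Sim2 or Crhr2 and 221 CPM in those with Qrfpr or Lgr5 only. These sets also differ in how many of the genes a nucleus held: 15 of the 107 held Sim2 alone and 11 Crhr2 alone, whereas 42 of the 109 held Qrfpr alone and 37 Lgr5 alone. Among members with a single gene, Gm2694 was at 254 CPM with Sim2, 257 CPM with Crhr2, 64.3 CPM with Qrfpr and 43.9 CPM with Lgr5, and Pde1c at 438, 599, 211 and 115 CPM in the same order. For Angpt1 and Fras1 the single-gene members did not follow the split into both sets. Angpt1 was at 629 CPM in the members with Sim2 or Crhr2 and 341 CPM in those with Qrfpr or Lgr5 only, but at 315 CPM with Sim2 alone, 299 CPM with Crhr2 alone, 397 CPM with Qrfpr alone and 118 CPM with Lgr5 alone. Fras1 was at 525 CPM in the members with Sim2 or Crhr2 and 354 CPM in those with Qrfpr or Lgr5 only, but at 123, 456, 239 and 169 CPM in the same single-gene groups. Bdnf was at 134 CPM in the members with Sim2 or Crhr2 and 88.6 CPM in those with Qrfpr or Lgr5 only, and the intervals of the single-gene groups overlapped. Otp ranged from 57.02 to 78.9 CPM over the 4 single-gene groups and Slc17a6 from 125 to 164 CPM.

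Over all 4904 nuclei, the genes whose log level correlated most with the summed log level of the 4 selecting genes were Fras1 (r = 0.348), March1 (0.256), Pde1c (0.241) and Angpt1 (0.232). The nuclei share 1 library and vary in depth, and in sparse counts such values are a description.

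The share of members was compared between the pools, since the design asks about changes in PVH neuron populations. Members made up 5.20% (4.07–6.52) of KD nuclei, 3.90% (3.0–4.97) of Q153R nuclei and 4.27% (3.42–5.26) of Ctrl nuclei, that is 70 of 1347, 62 of 1591 and 84 of 1966. Set against Ctrl, KD had a ratio of 1.22 (0.873–1.69) and Q153R one of 0.912 (0.646–1.28), and both intervals include 1. With nuclei thinned to 2338 UMIs, which left out 107 KD, 175 Q153R and 209 Ctrl nuclei, the rule found 71 members, 65 of them members at full depth. The shares were then 1.69% (1.05–2.58) for KD, 1.48% (0.920–2.26) for Q153R and 1.65% (1.11–2.36) for Ctrl. A difference in this share was not detectable at this depth. Where only nuclei with clear tags were kept, the KD ratio at full depth was 1.72, above the main interval of 0.873 to 1.69. Nuclei with clear tags are those whose next-highest tag lay below its own threshold by a fixed margin.

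Among nuclei with a Sim1 UMI and few GABAergic UMIs, members made up 6.40% (4.84–8.27) in KD, 3.95% (2.89–5.27) in Q153R and 6.07% (4.74–7.65) in Ctrl. Set against Ctrl, KD was at 1.05 (0.722–1.53) and Q153R at 0.651 (0.435–0.966). The Q153R interval excludes 1 under this denominator and includes it under the other. The denominator with Sim1 held 844 of 1347 KD nuclei, 1113 of 1591 Q153R nuclei and 1103 of 1966 Ctrl nuclei. Cluster 15, led by Gad1, held 141 KD, 77 Q153R and 338 Ctrl nuclei. The pools thus differed in the nuclei that only the wider denominator counts, and the part of this mix in the shares was not tested. Q153R members had the lowest median library size, at 6046.5 UMIs, and its part in these shares was not tested. The narrower denominator also needs a Sim1 UMI, and Sim1 itself differed between pools. Over cluster 2 it was at 0.80 (0.69–0.92) times the Ctrl level in KD and 1.09 (0.96–1.25) in Q153R. In members these Sim1 ratios were 0.80 (0.67–0.96) and 0.92 (0.76–1.11). The part of Sim1 level in these shares was not tested. Such shares also depend on how the tissue was dissected and on the GFP sort.

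**Figure D4:**
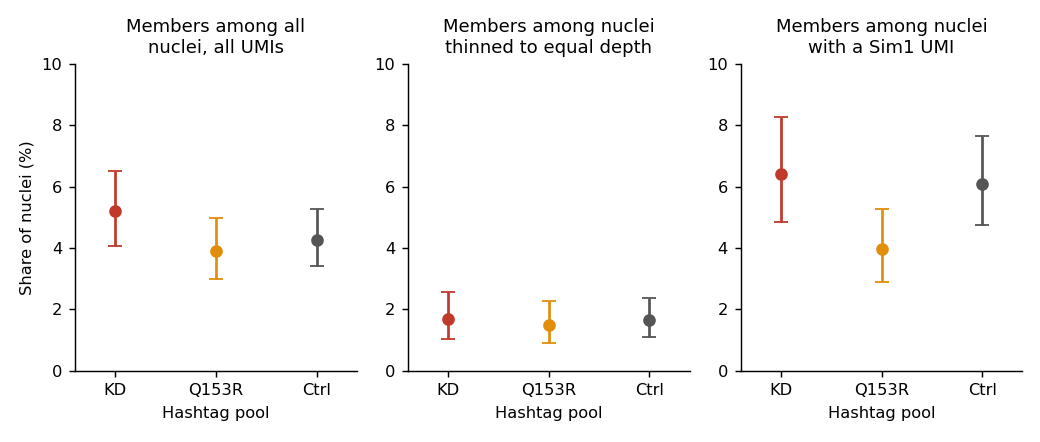
The share of members in nuclei labelled KD, Q153R and Ctrl in percent, with exact Clopper-Pearson intervals, among all one-tag nuclei (left), nuclei thinned to equal depth (middle) and nuclei with a Sim1 UMI and few GABAergic UMIs (right). KD and Ctrl lie close together in the right panel, at 6.40% and 6.07%, with Q153R at 3.95%.

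Sex mix also differed between the pools of members. Nuclei with at least 3 Xist UMIs made up 75.7% of KD members, 43.5% of Q153R members and 66.7% of Ctrl members, and nuclei with at least 2 Y-linked UMIs 5.71%, 27.4% and 10.7%. The part of sex in the differences between pools was not tested beyond refitting in the Xist nuclei alone.

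Otp, the altered gene, was at 70.5 CPM in KD members, 82.4 CPM in Q153R members and 59.8 CPM in Ctrl members, from 38, 34 and 37 UMIs. KD stood at 1.18 (0.73–1.90) and Q153R at 1.38 (0.84–2.26) times Ctrl. In the other nuclei with a Sim1 UMI KD reached 1.62 (1.42–1.86) and Q153R 2.10 (1.85–2.39). Over all nuclei of cluster 2 KD was at 1.42 (0.97–2.08) and Q153R at 1.55 (1.06–2.27) times Ctrl. In members the order was the same as in the other nuclei, highest in Q153R and lowest in Ctrl, with intervals that include 1. This order changed with the processing, since the log2 ratio of Otp in members was −0.81 for KD after thinning and −0.29 for Q153R with a threshold of 3 UMIs. The floxed stretch is not given in the sources used here, so Otp UMIs do not check the labels.

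Few genes passed 2-fold between KD and Ctrl members, and Wdr41 had the largest ratio. Of 4234 genes with at least 50 UMIs over both pools, 31 were more than 2-fold higher in KD (0.732%) and 29 lower (0.685%). In the other nuclei with a Sim1 UMI, with 790 KD and 1036 Ctrl nuclei, 9 of 12021 passed (0.0749%), 3 of them higher in KD (0.025%) and 6 lower (0.0499%), and summed counts are larger there. Wdr41, the next gene past Otp on the same strand, was at 263 CPM in KD members, 99.4 CPM in Q153R members and 46.9 CPM in Ctrl members. It was 5.62 times (3.75–8.69) the Ctrl level in KD and 2.12 times (1.29–3.54) in Q153R. The KD ratio was 4.57 (3.43–6.16) over cluster 2 and 5.95 (5.28–6.71) in the other nuclei with a Sim1 UMI, and the Q153R ratio was 1.59 (1.10–2.30) and 1.46 (1.27–1.69) in the same sets.

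Il1rapl2, which encodes a synaptic adhesion protein of the interleukin-1 receptor family, was lower in KD members. It was at 180 CPM in KD members and 455 CPM in Ctrl members, a ratio of 0.40 (0.31–0.50). The KD ratio was 0.46 (0.43–0.49) in the other nuclei with a Sim1 UMI and 0.64 (0.52–0.78) over cluster 2. Inside cluster 2 the KD ratio was 0.46 (0.35–0.59) in members and 0.89 (0.64–1.23) in the nuclei that were not members. A UMI of Il1rapl2 was seen in 15 of 47 KD and 21 of 61 Ctrl members there. Over all members its UMIs lay in 19 KD and 28 Ctrl nuclei, and 38 of its 97 KD UMIs came from 1 nucleus. With a threshold of 3 UMIs its log2 ratio in members was −0.32. Wdr41 and Il1rapl2 were the named KD genes whose ratio in the other nuclei with a Sim1 UMI also passed 2-fold.

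Other genes higher in KD members were less even over the sets. Tmem200a was at 109 CPM in KD members and 40.4 CPM in Ctrl members (2.71, 1.67–4.51), Etfa, a subunit of the mitochondrial electron transfer flavoprotein, at 66.8 CPM in KD members and 24.3 CPM in Ctrl members (2.75, 1.47–5.41), and Gng4, a G protein gamma subunit gene, at 72.4 CPM in KD members and 25.9 CPM in Ctrl members (2.80, 1.53–5.36). Over all nuclei of cluster 2 their KD ratios were 1.42, 1.96 and 1.48, and in the other nuclei with a Sim1 UMI 0.92, 1.07 and 0.92. Lmln passed 2-fold as well, at 2.58 times. Gm20754, Gm28928, Grm8, D030068K23Rik and Fgf13 also passed 2-fold in KD members, by 2.27 to 3.29 times. Over all nuclei of cluster 2, members or not, their KD ratios were 0.72, 0.98, 0.98, 0.30 and 1.11. In the members inside cluster 2 alone, Grm8 was at 2.01 (1.44–2.83), Fgf13 at 1.49 (0.99–2.24), Gm28928 at 0.98 (0.69–1.39) and Gm20754 at 0.56 (0.19–1.43), and D030068K23Rik had 3 KD and 2 Ctrl UMIs.

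Genes lower in KD members included Mterf3, a mitochondrial transcription regulator, at 26.0 CPM in KD members and 77.6 CPM in Ctrl members (0.33, 0.17–0.62), and Cbfb, the partner of RUNX factors, at 27.8 CPM in KD members and 77.6 CPM in Ctrl members (0.36, 0.19–0.65). The deubiquitinase gene Mindy2 was at 35.3 CPM in KD members and 89.0 CPM in Ctrl members (0.40, 0.22–0.68), with 0.43 (0.25–0.71) over cluster 2. The remaining 6 of the 10 lowest, 3110082I17Rik, Kat7, Xpot, Sertad2, Gtf2f2 and Thsd4, lay between 0.36 and 0.40 in members and between 0.64 and 0.90 over cluster 2. All 9 were between 0.83 and 1.08 in the other nuclei with a Sim1 UMI. Of the listed genes, Fzd3, a Wnt receptor, was at 46.4 CPM in KD members and 105.1 CPM in Ctrl members (0.44, 0.27–0.71), and Foxp2 passed 2-fold from 5 KD and 9 Ctrl nuclei.

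Between Q153R and Ctrl members, 21 of 3914 genes were more than 2-fold higher in Q153R (0.537%) and 32 lower (0.818%). In the other nuclei with a Sim1 UMI 7 of 12090 passed (0.0579%), 5 of them higher in Q153R (0.0414%) and 2 lower (0.0165%). Arhgap6, a GTPase-activating protein gene, had the largest ratio, at 119 CPM in Q153R members and 25.9 CPM in Ctrl members (4.59, 2.57–8.65), from 12 and 9 nuclei. Over cluster 2 its ratio was 1.12, and its log2 ratio in members was 0.02 where only nuclei with clear tags were kept. These were 18 of 62 Q153R and 37 of 84 Ctrl members, whose next-highest tag lay below its own threshold by a fixed margin. Nipa1, a magnesium transporter gene, was at 129 CPM in Q153R members and 48.5 CPM in Ctrl members (2.65, 1.66–4.29) and at 1.47 (1.05–2.05) over cluster 2. Bmper, a modulator of BMP signalling, was at 99.4 CPM in Q153R members and 40.4 CPM in Ctrl members (2.46, 1.46–4.22) and at 1.63 (1.10–2.40) over cluster 2. The other 7 of the 10 highest, Ptchd4, Fgf13, Asxl3, Grm8, Rasgef1b, Unc13b and Gm28928, lay between 2.29 and 2.92 in members and between 0.59 and 1.35 over cluster 2.

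Among genes lower in Q153R members, Gm11508 was at 24.2 CPM in Q153R members and 80.9 CPM in Ctrl members (0.30, 0.14–0.60), with 0.41 (0.25–0.65) over cluster 2 and 0.93 (0.78–1.09) in the other nuclei with a Sim1 UMI. Tmem243 had the same counts in members, at 0.30 times, and 0.65 over cluster 2. Pcgf5, a Polycomb component gene, was at 63.0 CPM in Q153R members and 186 CPM in Ctrl members (0.34, 0.21–0.52), with 0.84 over cluster 2. The other 7 of the 10 lowest, Cdh6, Mterf3, Psmb7, Katnal2, Map3k4, Zdhhc13 and 4930445B16Rik, lay between 0.37 and 0.41 in members and between 0.57 and 0.87 over cluster 2. Mterf3 was among the lowest in KD and Q153R, and both comparisons share the same Ctrl members.

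**Figure D5:**
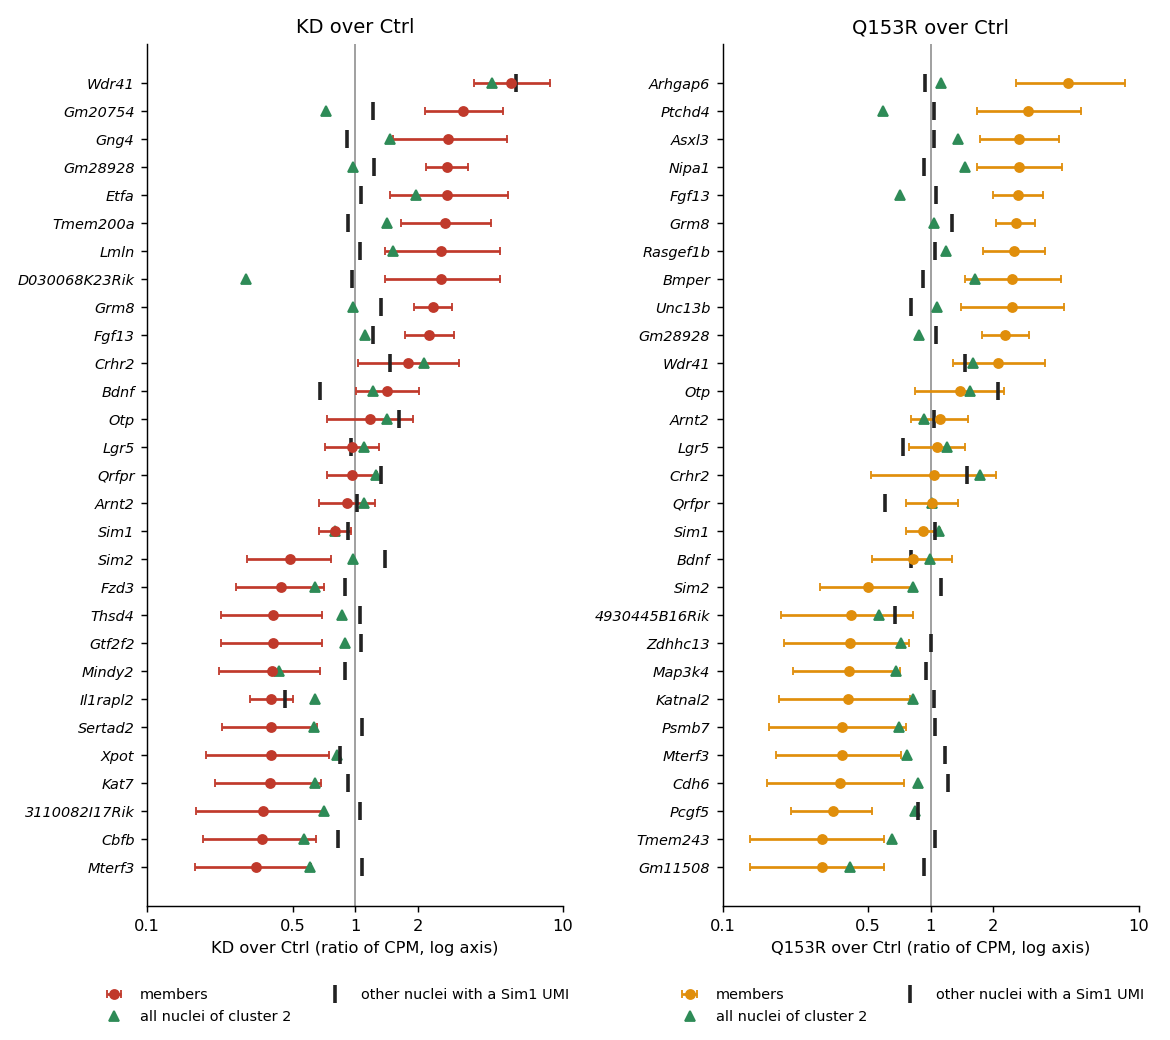
Ratios of KD to Ctrl (left) and Q153R to Ctrl (right) on a log axis for the named genes, in members with exact intervals, over all nuclei of cluster 2 and in other nuclei with a Sim1 UMI. In KD the 3 marks lie together for Wdr41, at 5.62, 4.57 and 5.95, while most other genes at the top and bottom lie near 1 in the other nuclei with a Sim1 UMI.

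Of the listed gene groups, few genes passed 2-fold between pools. In KD members 0 of 7 neuropeptide genes did, with a median log2 ratio of −0.40, against −0.03 for all genes, and in Q153R members 0 of 7, with a median of −0.41 against −0.02. Trh was at 102 CPM in KD members, 126 CPM in Q153R members and 144 CPM in Ctrl members, a KD ratio of 0.71 (0.50–1.0). Over all nuclei of cluster 2 its KD ratio was 0.65 (0.50–0.83) and its Q153R ratio 0.96 (0.76–1.20). Of receptors, 0 of 15 passed in KD and 0 of 14 in Q153R, with Prlr at 288 CPM in KD members, 162 CPM in Q153R members and 205 CPM in Ctrl members. Of transcription factors, Foxp2 alone passed among 28 in KD and 0 of 28 in Q153R.

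Leading genes of the members were also compared by pool. Fras1 was at 453 CPM in KD members, 424 CPM in Q153R members and 430 CPM in Ctrl members, with intervals of both ratios that include 1. Over all nuclei of cluster 2 its KD ratio was 1.37 (1.19–1.58) and its Q153R ratio 1.30 (1.12–1.51). In the nuclei of cluster 2 that were not members these ratios were 1.58 (1.25–1.99) and 1.59 (1.27–1.997). In the members inside cluster 2 they were 1.09 (0.91–1.31) and 1.13 (0.92–1.38). In the other nuclei with a Sim1 UMI they were 1.25 (1.09–1.43) and 1.06 (0.93–1.22). Gm13481 was at 141 CPM in KD members, 155 CPM in Q153R members and 92.2 CPM in Ctrl members, with KD and Q153R ratios of 1.53 (1.07–2.20) and 1.68 (1.16–2.45). Gm28526 was at 79.8 CPM in KD members, 31.5 CPM in Q153R members and 17.8 CPM in Ctrl members, but 16 of its 43 KD UMIs came from 1 nucleus. In the other nuclei with a Sim1 UMI its ratios were 3.27 (1.84–6.08) for KD and 4.44 (2.58–8.07) for Q153R. Pde1c was at 252 CPM in KD members, 313 CPM in Q153R members and 403 CPM in Ctrl members, a KD ratio of 0.63 (0.50–0.78). Its KD ratio was also below 1 in the other nuclei with a Sim1 UMI, at 0.65 (0.57–0.73), and over cluster 2, at 0.74 (0.63–0.87). Arhgef26 was at 51.9 CPM in KD members, 17.0 CPM in Q153R members and 58.2 CPM in Ctrl members, a Q153R ratio of 0.29 (0.11–0.66).

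The selecting genes were compared between pools over all nuclei of cluster 2, which was formed without them, since within members the rule shapes their mix. Crhr2 was at 56.1 CPM in KD nuclei of the cluster, 45.2 CPM in Q153R nuclei and 26.2 CPM in Ctrl nuclei, from 40, 29 and 31 UMIs in 107, 111 and 178 nuclei. Crhr2 was thus at 2.14 times (1.31–3.54) the Ctrl level in KD and 1.72 times (1.0–2.96) in Q153R. Qrfpr was at 122, 98.2 and 96.5 CPM, Lgr5 at 80.0, 87.3 and 72.8 CPM and Sim2 at 51.9, 43.7 and 53.3 CPM over KD, Q153R and Ctrl, and the intervals of all 6 ratios to Ctrl include 1. No allowance was made for the number of genes compared.

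Within members, the pool values of the selecting genes describe the mix that the rule let in. Sim2 was at 51.9 CPM in KD members, 53.3 CPM in Q153R members and 107 CPM in Ctrl members, with 20, 16 and 41 nuclei holding a UMI. Crhr2 was at 66.8 CPM in KD members, 38.8 CPM in Q153R members and 37.2 CPM in Ctrl members. Qrfpr and Lgr5 lay within 189 to 199 CPM and 161 to 179 CPM over the 3 pools. Bdnf was at 143 CPM in KD members, 82.4 CPM in Q153R members and 100.3 CPM in Ctrl members, a KD ratio of 1.42 (1.01–2.02) in members, 1.22 (0.95–1.55) over cluster 2 and 0.68 (0.56–0.82) in the other nuclei with a Sim1 UMI. Inside cluster 2 it was 2.20 (1.48–3.31) in members and 0.82 (0.58–1.14) in the nuclei that were not members. The log2 KD ratio of Bdnf in members, 0.49 in the main setting, was 1.44 with clear tags, 1.08 with a threshold of 3 UMIs and 1.27 after thinning.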

How the data were processed

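Raw UMI counts per gene and barcode, deposited by the authors, were used, with 31053 rows for genes and 3 for hashtags in the feature list. They came from Cell Ranger 6.0.0 on mm10, per the submitters' processing notes, while the matrix header names 7.0.0. The sources used here do not give the counting annotation or strand setting. Gene positions are from GENCODE vM21, which held 30934 of the gene IDs. Tags were called at 61 (KD), 37 (Q153R) and 105 (Ctrl) UMIs. Barcodes with more than 1 tag were removed as doublets, and doublets within a pool were not called. Nuclei scaled to 10000 UMIs were clustered on 2000 variable genes with 30 components, 15 neighbours and Leiden resolution 1 (scanpy 1.11.5). Intervals are exact Poisson for levels, Clopper-Pearson for shares and exact conditional binomial for ratios. Calls need 50 UMIs over both groups and a 2-fold ratio after adding 5 CPM; printed ratios add nothing. Named genes of members were the 20 highest and, at 50 CPM or more in other nuclei, the 10 lowest ratios. Named pool genes were the 10 highest and 10 lowest with at least 50 UMIs in at least 10 nuclei, an interval excluding 1 and no single nucleus dominating the UMIs of the higher pool. Xist and Y-linked genes were left out of them. Some genes are not reported here. The members, lists, motif and tests were chosen with earlier results of these data known. The counting code was tested on simulated data. Depth was 27791629 UMIs over one-tag nuclei, of which members held 1569616. Python 3.11.15 and scipy 1.17.1 were used.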

Additional observations from a re-analysis of the deposited data

Results flagged for a closer look

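Barcodes with more than 1 hashtag were left out of every comparison, and some of them meet the expression rule. Of 1124 such barcodes, 54 do, or 4.80% (3.63–6.22), with a median of 11266.5 UMIs, against 216 of 4904 one-tag nuclei, or 4.40% (3.85–5.02), with a median of 5252 UMIs. Of 129 barcodes with no tag, 2 do (1.55%, 0.188–5.49).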

How the results depend on the processing

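No paired analysis was possible because each hashtag label is 1 pool of mice. The share ratio of KD to Ctrl was 1.22 (0.873–1.69) and reached 1.72, beyond this interval, where only nuclei with clear tags were kept. That setting left out most Q153R and Ctrl members. The count of 286 genes past 2-fold between members and other nuclei was 455 with a threshold of 3 UMIs, 467 without the deepest 10% of nuclei, 676 with clear tags, 628 after thinning, 687 for the members inside cluster 2 and 532 for all nuclei of cluster 2. The last pair of settings was chosen after seeing the data. Between KD and Ctrl members the count of 60 was 269 with a minimum of 20 UMIs, 1130.0 with no minimum beyond 1 UMI and 24 after thinning. Between Q153R and Ctrl members the count of 53 was 254 and 1105 with these minimums, 29 without the deepest 10%, 13 after thinning and 35 over all nuclei of cluster 2. Some log2 ratios changed sign, and the cause was not tested. For members over other nuclei, Pmch was at 0.21 without the deepest 10% and 0.21 against other nuclei with a Sim1 UMI, and Tcf7l2 at 0.19 with clear tags and 1.18 against the nuclei with Sim1, where Meis2 was at 0.90 and St18 at 0.44. For KD over Ctrl with clear tags, Gm28928 was at −0.80, Fgf13 at −0.23, Sertad2 at 1.33 and Foxp2 at 4.97. For KD in the members inside cluster 2, Gm20754 was at −0.71, Gm28928 at −0.032 and Foxp2 at 0.66. Over all nuclei of cluster 2 the KD values were −0.43 for Gm20754, −0.029 for Gm28928, −0.030 for Grm8, −1.36 for D030068K23Rik and 0.22 for Foxp2. For Q153R over Ctrl, Gm28928 was at −1.37 with a threshold of 3 UMIs, −0.48 with clear tags, −1.21 in the members inside cluster 2 and −0.19 over all of cluster 2, where Ptchd4 was at −0.69 and Fgf13 at −0.47. No other named ratio past 2-fold changed sign among the alternatives run, whereas smaller ratios, Otp among them, did. For KD over Ctrl, 329 values of named genes under alternatives stayed in the counting interval of the main ratio or within 0.2 log2 of it, and 31 moved further; for Q153R the counts were 318 and 36. Within members the pools hold 412394 to 618237 UMIs, which limits comparisons of genes with few UMIs.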
